A study of Mus musculus with 8 samples.

Results

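The 10 genes described here mark the primitive endoderm, and they were found by symbol among 21887 genes annotated as coding for a protein (RefSeq, GRCm38.p6, with mm10 coordinates). For each gene, every open region within the gene body and 50 kb on each side was collected from 4 deposited lists. The lists come from ATAC-seq, in which a transposase cuts and tags accessible DNA, of mouse embryonic stem cells grown in 2i/LIF medium for 4 passages. Ubc9 was depleted in the line v6.5 by 72 hours of doxycycline (TET-OFF), and the comparison was with Ubc9-control cells of that line. Effects of doxycycline itself cannot be told apart from those of the depletion. Cells with the genotype H1.2-/-H1.3-/-H1.4-/-, which lack 3 linker histones, were set against H1-WT cells. Both H1 lines were taken from an earlier publication. Each group has 2 replicates, and the authors made 1 list from both. There is therefore no spread between replicates, no difference below has a test, and a region that is absent from a list was not called there, which does not show closed chromatin.

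The primitive endoderm is the layer that separates from the epiblast inside the blastocyst and later forms the parietal and visceral endoderm of the yolk sac. FGF signalling through ERK drives its formation, with Gata6, Gata4, Sox17 and Sox7 acting in a cascade against the epiblast factor Nanog. An inhibitor in 2i medium blocks that FGF signalling. The differentiated cells lay down a basement membrane rich in type IV collagen and secrete serum carrier proteins. Ubc9 is the conjugating enzyme of the SUMO pathway, and linker histones bind the nucleosome and the DNA that enters and leaves it.

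The lists held 48730 regions for Ubc9-depleted cells, 46847 for their control. The H1 lists were longer, with 58039 in the triple knockout and 55489 in the wild type. Each region has a score that the authors deposited, taken here to be 10 times the negative log10 p of the peak call, with a minimum of 50. It is used to rank regions within a list, and the median scores were 128, 126, 139 and 132 in the same order. The median region was 431 and 367 bp wide in the Ubc9 pair and 259 and 273 bp in the H1 pair, so widths and counts were compared within a pair. How deeply each library was sequenced is unknown. As a check of the labels, regions of triple-knockout cells covered 0 bp of H1f2 and of H1f3 and 20 bp of H1f4, against 725, 242 and 38 bp in wild-type cells. As a check of the cell type, 10 of 12 pluripotency genes had a region within 1000 bp of an annotated end in every list. Of all 21887 genes, 11252 to 11896 had one, depending on the list, so such a region does not by itself identify a cell type.

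The windows of the 10 genes held fewer regions in the median than those of all genes. They held a median of 2 regions per gene in the depleted list, 2.5 in the control and triple-knockout lists and 3 in the wild-type list, against medians of 4, 4, 5 and 4 over all genes. Counted once each, the windows held 23, 25, 30 and 27 regions in the depleted, control, triple-knockout and wild-type lists. A region is called shared when it overlaps a region of the other list of its pair by at least 1 bp, and unshared otherwise. Regions of the 4 lists that overlap in a chain form a locus, and the windows held 54 loci.

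A gene end means the 1000 bp on each side of either annotated end of a gene, and 8 of the 10 genes had a gene-end region in at least 1 list. By list, 5, 6, 4 and 3 of the 10 had one in depleted, control, triple-knockout and wild-type cells. Over all 21887 genes the counts were 11896, 11618, 11252 and 11325. In the Ubc9 pair, Col4a1 and Col4a2 had one in depleted cells only, against 5.29% of all genes. Gata6, Thbd and Ttr had one in control cells only, against 4.02%. In the H1 pair, Foxa2 and Ttr had one in triple-knockout cells only (4.45% of all genes), and Cited1 had one in wild-type cells only (4.78%). The genes were picked with such differences known, so these counts describe the 7 genes concerned and say nothing of primitive endoderm genes in general. The plot of gene-end scores shows each value.

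**Figure D1:**
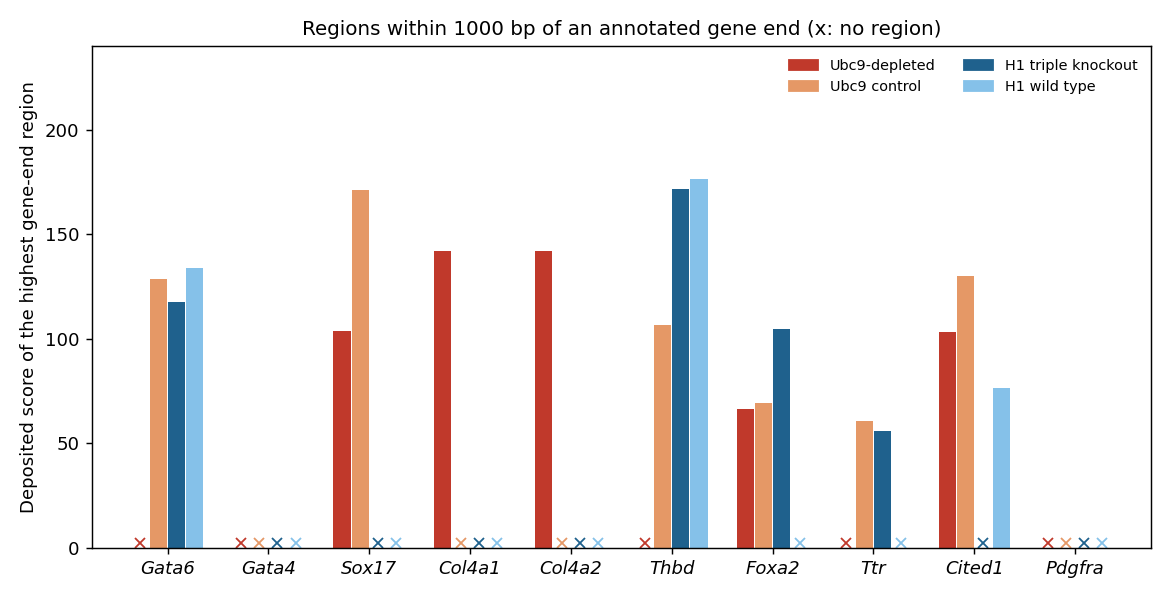
Score of the highest-scoring region within 1000 bp of an annotated gene end, for each of the 10 genes (x axis) in each of the 4 lists (bars), with the deposited score on the y axis and a cross where no region was called. Gata6 and Thbd lack a region in the depleted list alone, Col4a1 and Col4a2 have a region of score 142 in that list alone, and Gata4 and Pdgfra have no gene-end region in any list.

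Gata6, a zinc-finger factor that starts the primitive endoderm programme, lies on chromosome 18 from 11052510 to 11085636. At its lower-coordinate end, which overlaps the end of the lncRNA gene Gata6os, the control, triple-knockout and wild-type lists each held a region, with scores of 129, 118 and 134. These 3 regions merge into a locus of 424 bp, from 11052242 to 11052665, and the depleted list had no region there. A further locus 12.1 kb beyond that end scored 253 in control cells, above 81.9% of the control list, and 99.7 in triple-knockout cells, and was absent from both other lists. The depleted list thus held 0 regions in the whole Gata6 window, and its nearest region lay 74.5 kb from the gene. Gata6 was the only one of the 10 genes without any depleted region, while the control list held 2 regions in that window, the triple-knockout list 2 and the wild-type list 1. The share of all genes with an empty window was not computed, and the Cited1 window was likewise empty in the triple-knockout list.

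Gata4, a related zinc-finger factor that follows Gata6, lies on chromosome 14 from 63198914 to 63271712 and had no gene-end region in any list. Inside the gene, a locus from 63255512 to 63256198 scored 94.4 in depleted and 82.2 in control cells. The wild-type list held 2 regions there, the higher with a score of 137, and the triple-knockout list none. The highest score of the 10 windows in each list belonged to a locus 20.6 kb from Gata4, in the neighbouring gene Fdft1. It scored 508, 342, 501 and 468 in the depleted, control, triple-knockout and wild-type lists, above 89.8% to 95.4% of each list. Other loci of the Gata4 window were weaker and mostly private to a list. Triple-knockout cells alone had regions in Fdft1 at 49.0, 41.1 and 26.1 kb (scores 84.1, 161 and 100). Wild-type cells alone had regions at 4.9 and 2.9 kb (120 and 57.9), the former at an end of Neil2. Depleted cells alone had regions 33.8 kb below the gene and 8.6 kb above it (71.7 and 101).

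Sox17, an HMG-box factor of endoderm, lies on chromosome 1 from 4490928 to 4497426 and carried regions inside the gene in all 4 lists. The locus from 4493153 to 4493994 scored 140 and 124 in depleted and control cells and 252 and 189 in triple-knockout and wild-type cells. A second locus, from 4491672 to 4492378, reached the lower-coordinate gene end and was found in the Ubc9 pair only, with scores of 104 in depleted and 171 in control cells. Both loci were shared within the Ubc9 pair, and the depleted score ranked higher in its list than the control score at the former (54.7% against 49.1% of the list below it) and lower at the latter (36.5% against 66.7%). Farther out, a locus 46.6 kb above the gene was present in both unperturbed lists (144 in control, 132 in wild type) and in neither perturbed list. A wild-type region 18.9 kb below the gene (82.5) had no partner.

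Foxa2, a forkhead factor of definitive and visceral endoderm, lies on chromosome 2 from 148042877 to 148046969, on the minus strand. Its gene-end regions were among the weakest of each Ubc9 list, with scores of 66.2 in depleted and 69.2 in control cells, above 7.4% and 8.1% of their lists. The triple-knockout region there scored 105, and the wild-type list had none. RefSeq gives 3 transcription start windows for the gene, each of 250 bases before and 50 after a start, and regions touched only the one from 148045899 to 148046198, which is shown here because it carries the difference between the H1 lists. The capitals mark the 212 bases inside the triple-knockout region, the control region covered 174 bases of the window, and the depleted region, which lies farther upstream, covered 0.
Foxa2, chr2:148045899-148046198, minus strand: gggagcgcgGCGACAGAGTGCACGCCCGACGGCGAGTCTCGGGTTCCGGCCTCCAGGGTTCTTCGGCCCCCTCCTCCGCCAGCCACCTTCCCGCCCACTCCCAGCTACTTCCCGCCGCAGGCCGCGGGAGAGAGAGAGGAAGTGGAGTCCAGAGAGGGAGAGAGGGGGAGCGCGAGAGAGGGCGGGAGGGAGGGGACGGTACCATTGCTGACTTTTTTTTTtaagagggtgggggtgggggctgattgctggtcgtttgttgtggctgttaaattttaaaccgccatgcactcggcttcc

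Around Foxa2 the 4 lists held 5 loci in all, and none of them was present in every list. At 1.5 kb upstream the depleted, triple-knockout and wild-type lists held a region (65.9, 72.4 and 107) and the control list none. At 6.4 kb the control (87.3) and wild-type lists (140) held a region, and neither perturbed list did. At 35.4 kb the control, triple-knockout and wild-type lists held a region (165, 235 and 94.0), and the depleted list none. A control region 1.8 kb beyond the other end (65.1) had no partner and lies at an end of the lncRNA gene 9030622O22Rik.

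Cited1, a transcriptional co-activator that binds CBP and p300, lies on the X chromosome from 102247378 to 102252181, on the minus strand. Its window held a single locus, at the transcription start, from 102251952 to 102252384. The scores were 103 in depleted, 130 in control and 76.2 in wild-type cells, and triple-knockout cells had no region within the window. The wild-type score stood above only 17.3% of its list, so the H1 difference rests on a weak region. Of the 3 start windows of Cited1, the middle one is printed because the wild-type region covers most there. The capitals mark the 142 bases covered by the wild-type region, and the depleted and control regions covered 131 and 128 bases of the same window.
Cited1, chrX:102251794-102252093, minus strand: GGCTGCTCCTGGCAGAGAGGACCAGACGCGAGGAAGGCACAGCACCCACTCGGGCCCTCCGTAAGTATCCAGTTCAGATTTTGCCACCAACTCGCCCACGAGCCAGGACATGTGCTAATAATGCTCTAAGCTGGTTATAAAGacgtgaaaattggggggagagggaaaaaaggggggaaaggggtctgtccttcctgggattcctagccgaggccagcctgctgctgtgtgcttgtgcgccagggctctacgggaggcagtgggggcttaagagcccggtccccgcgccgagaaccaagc

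Pdgfra, the receptor for PDGF-A that marks primitive endoderm precursors, lies on chromosome 5 from 75151322 to 75198206, on the plus strand. No list had a region in its RefSeq start window. It is printed for contrast with the other printed windows, each of which was covered in at least 1 list and none in all 4.
Pdgfra, chr5:75152001-75152300, plus strand: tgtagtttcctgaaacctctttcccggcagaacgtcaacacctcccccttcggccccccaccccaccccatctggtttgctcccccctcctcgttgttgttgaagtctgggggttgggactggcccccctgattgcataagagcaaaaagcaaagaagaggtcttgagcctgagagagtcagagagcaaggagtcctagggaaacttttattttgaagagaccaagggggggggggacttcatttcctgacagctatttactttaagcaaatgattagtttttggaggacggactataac

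Inside Pdgfra, however, the locus from 75155618 to 75156637, centred 3.9 kb from the start, was open in all 4 lists. It scored 200 in depleted and 260 in control cells, as regions of 865 and 1020 bp. Both H1 lists held 2 shorter regions there. Those of triple-knockout cells both carried a score of 209, and those of wild-type cells scored 225 and 83.8. A second locus inside the gene was present in both H1 lists (127 in triple-knockout and 167 in wild-type cells) and in neither Ubc9 list. A locus 11.8 kb beyond the gene was found in control (97.4) and triple-knockout cells (143) only. A weak triple-knockout region 32.2 kb below the gene (65.7) had no partner. The depleted list held only the shared region in the Pdgfra window.

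Col4a1 and Col4a2 encode the alpha chains that form the common type IV collagen of basement membranes. They lie head to head on chromosome 8, Col4a1 from 11198423 to 11312889 on the minus strand and Col4a2 from 11312805 to 11449287 on the plus strand, and their annotations share 85 bp. A region of depleted cells from 11312454 to 11313030, 577 bp wide, covered both starts. Its score of 142 stood above 55.4% of the depleted list, and none of the 3 other lists held a region there. It is 1 region and counts once, although it makes both genes differ at the gene end. The Col4a2 start window is printed because that region covers all 300 of its bases, and the capitals mark the 78 bases it shares with the start window of Col4a1, of which the region covered 254 bases.
Col4a2, chr8:11312555-11312854, plus strand: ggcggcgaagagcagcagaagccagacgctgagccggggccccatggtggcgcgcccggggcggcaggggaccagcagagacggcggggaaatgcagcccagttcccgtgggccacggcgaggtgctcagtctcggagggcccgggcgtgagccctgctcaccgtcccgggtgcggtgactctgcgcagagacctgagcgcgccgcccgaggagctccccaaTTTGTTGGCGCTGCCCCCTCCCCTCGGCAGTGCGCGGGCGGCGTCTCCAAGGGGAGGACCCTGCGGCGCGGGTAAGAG

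Both collagen windows were rich in CG dinucleotides, with 37 for Col4a1 and 33 for Col4a2, more than 94.4% and 91.4% of the 32851 RefSeq start windows, whose median was 7. The Cited1 windows held 14 to 32, the Foxa2 windows 12 to 23 and the Pdgfra window 5. Letters recognised by the endoderm factors were searched on both strands of every window. For the zinc-finger factors the motif was GATAAG, which occurred in 7.44% of all start windows. For the Sox factors the motif AACAAT occurred in 10.7%. For the forkhead factors the motif GTAAACA occurred in 3.65%, and it can overlap that of the Sox factors by shared letters. None of the 9 windows of these 5 genes held any of the 3 motifs, which says only that these letters are not there.

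Away from their common start, the collagen genes carried several further regions private to depleted cells. The regions inside Col4a1 at 11253551 (score 60.1) and inside Col4a2 at 11352196 (66.2) and 11392869 (102) had no partner in any list. A triple-knockout region of score 232 began at 11393151, beside the last of these and not overlapping it. The locus inside Col4a1 from 11215287 to 11215570 was open in all 4 lists (88.3, 145, 228 and 190 in the depleted, control, triple-knockout and wild-type lists). Weaker regions inside Col4a2 were private to wild-type cells (108, at 11421280) and to triple-knockout cells (61.7, at 11430724). A locus 10.6 kb beyond the far end of Col4a1 was present in every list but the control (88.9, 71.8 and 116 in the depleted, triple-knockout and wild-type lists). Beyond Col4a2, a locus in Rab20, 19.8 kb away, was present in control, triple-knockout and wild-type cells (109, 168 and 196) and absent from the depleted list. A locus at 32.5 kb was present in both unperturbed lists only (94.8 and 226). The locus at 48.0 kb lies at an end of Naxd and was open in every list. In the H1 pair, 20.1% of triple-knockout regions and 39.8% of wild-type regions on chromosome 8 were unshared, against 31.4% and 28.7% over all autosomes together. In the Col4a1 window the H1 lists held 2 regions each, 0 of them unshared, and in the Col4a2 window each held 4 regions, 2 of them unshared.

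Thbd, which encodes thrombomodulin, a surface receptor for thrombin found on parietal endoderm and endothelium, lies on chromosome 2 from 148404471 to 148408188, 358 kb from Foxa2. At its higher-coordinate end, a locus from 148407457 to 148408445 scored 106 in control, 172 in triple-knockout and 176 in wild-type cells, and depleted cells had no region. The depleted list held 3 regions in the window, all unshared, at 44.9 kb below the gene (97.0) and at 3.5 and 7.3 kb above it (117 and 80.8). The control list held 2, both unshared, so the Ubc9 lists had no region in common around Thbd. In the H1 pair all 3 wild-type regions were shared. They were the gene-end region, a region 1.1 kb above the gene (68.4 in wild-type and 223 in triple-knockout cells) and a region 28.8 kb below it (284 and 111). The triple-knockout list held 5 more, with scores from 76.6 to 170, among them 1 at an end of Sstr4 and 1 at an end of Cd93. With 8 regions this window was the richest of the 10 in the triple-knockout list. On chromosome 2 as a whole, triple-knockout cells had 1.37 unshared regions for each of wild-type cells, and the autosomal ratio was 1.15.

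Ttr, which encodes the thyroid hormone carrier transthyretin secreted by visceral endoderm, lies on chromosome 18 from 20664209 to 20674326. Its gene-end differences rest on regions near the minimum score, of 60.7 in control cells, 0.5 kb beyond the gene, and 55.7 in triple-knockout cells, inside it. These stood above 2.5% and 2.0% of their lists and did not overlap each other. A locus 7.6 kb beyond the gene was present in the Ubc9 pair only (84.4 in depleted and 169 in control cells). In the neighbouring gene B4galt6, a locus 36.2 kb away was present in both unperturbed lists (218 in control and 140 in wild-type cells) and in neither perturbed list. A locus at 27.6 kb was present in depleted and wild-type cells (70.8 and 89.9). The triple-knockout list held only its weak gene-end region in the window.

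**Figure D2:**
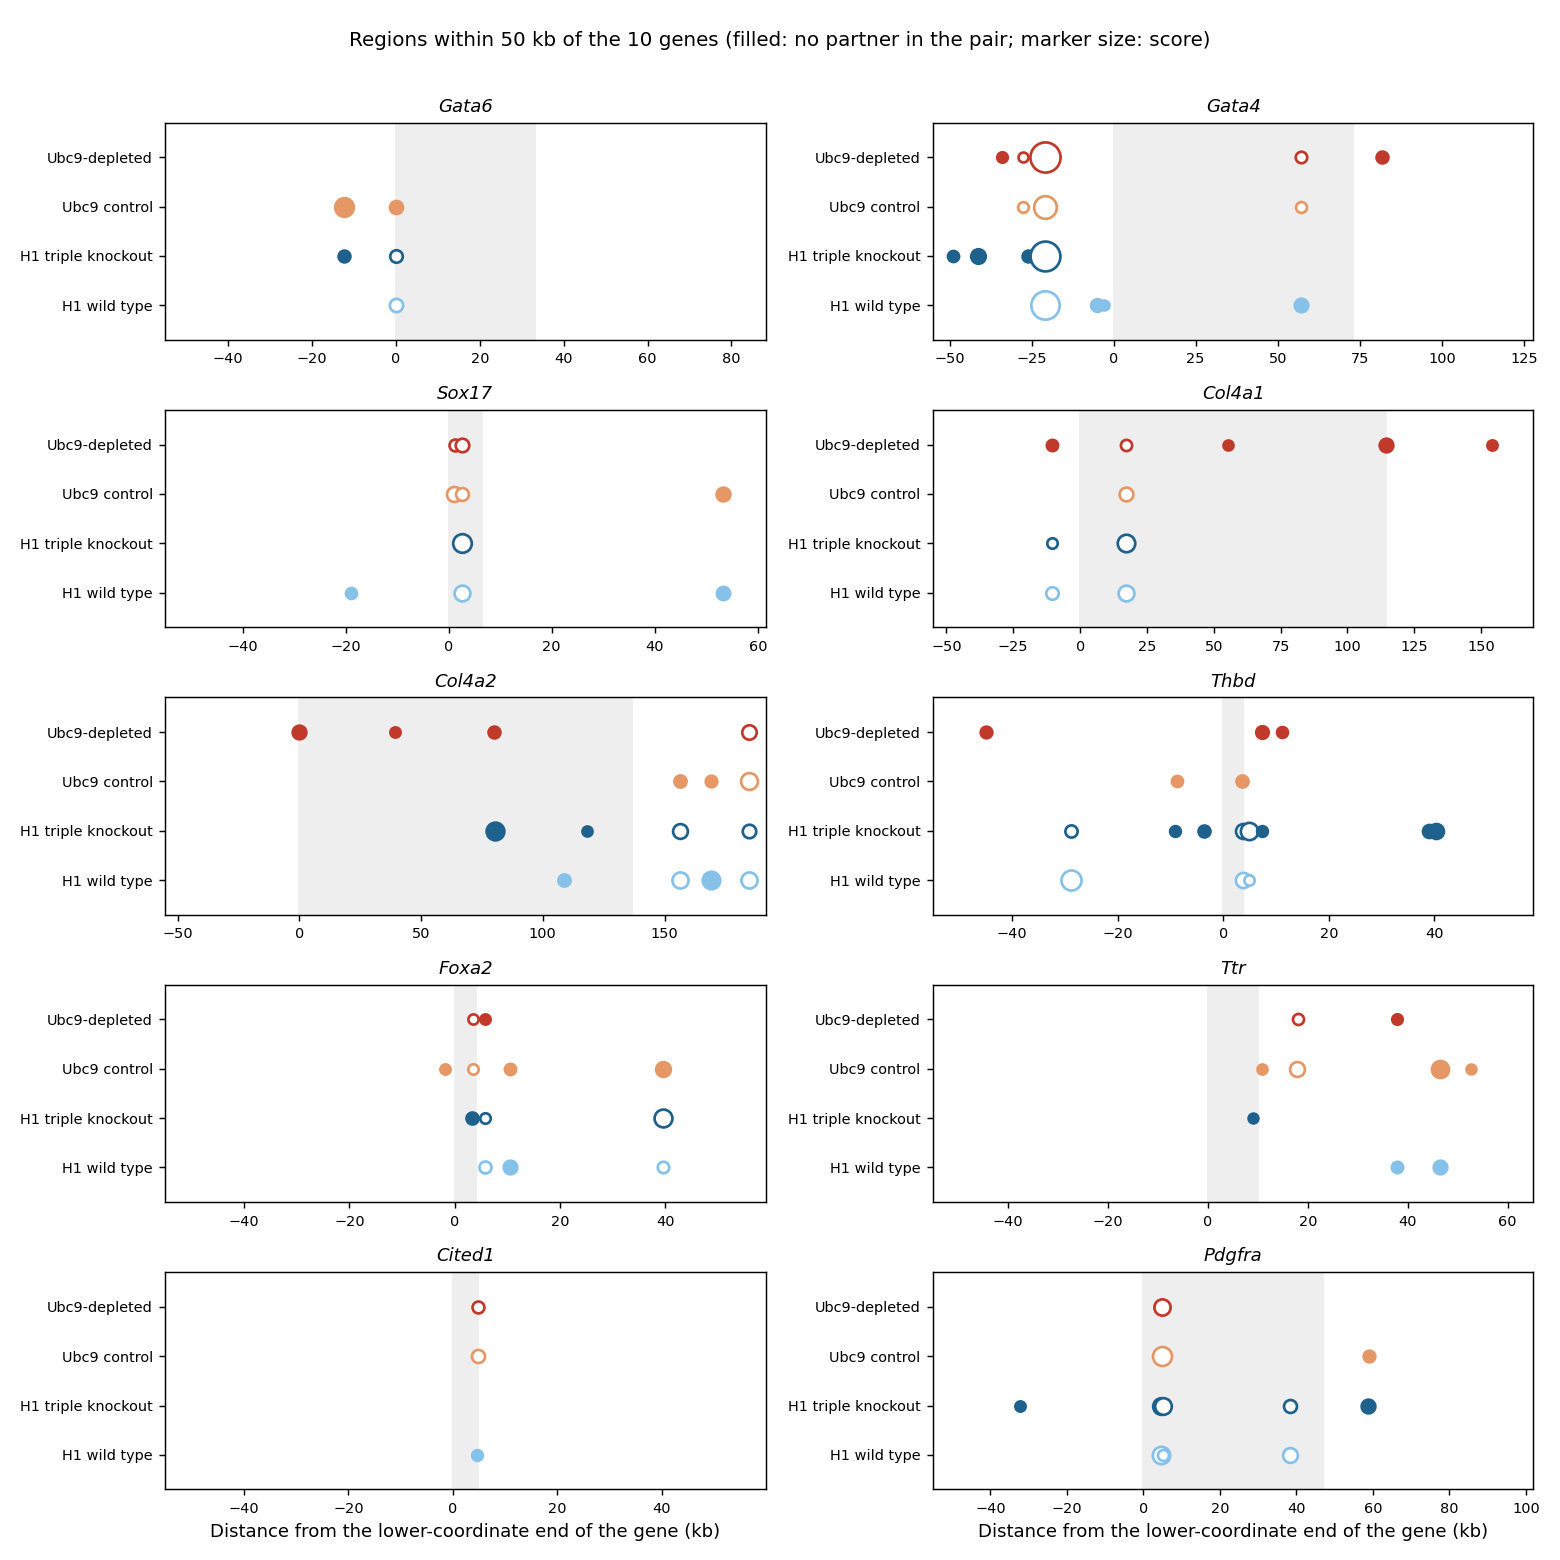
Regions of the 4 lists (rows) around each gene, by distance from its lower-coordinate end in kb (x axis), with the gene body shaded, marker size following the score, and filled markers for regions with no partner in the other list of the pair. The Gata6 panel has no depleted marker, the Col4a1 and Col4a2 panels show filled depleted markers at the common start and inside both genes, and the Pdgfra panel shows an open marker in every row inside the gene.

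Across the 54 loci, agreement of all 4 lists was found at 5 (9.26%), against 24.7% of the 72269 loci within 50 kb of any protein-coding gene. These 5 lay inside Sox17, Pdgfra and Col4a1, in Fdft1 near Gata4 and at Naxd near Col4a2. Absence from the depleted list alone was found at 4 loci (7.41%, against 10.3%), at the ends of Gata6 and Thbd, 35.4 kb from Foxa2 and in Rab20 near Col4a2. Presence in the depleted list alone was found at 8 loci (14.8%, against 15.9%), 4 of them in the collagen genes. Presence in the triple-knockout list alone was found at 10 loci (18.5%, against 12.5%), 3 of them around Thbd and 3 around Gata4. Loci of both unperturbed lists only numbered 4 (7.41%, against 3.76%), near Sox17, Foxa2, Col4a2 and Ttr, while loci of both perturbed lists only numbered 1 (1.85%, against 1.41%), near Thbd. Apart from the loci common to all lists, these counts were within a few loci of what the background shares give.

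**Figure D3:**
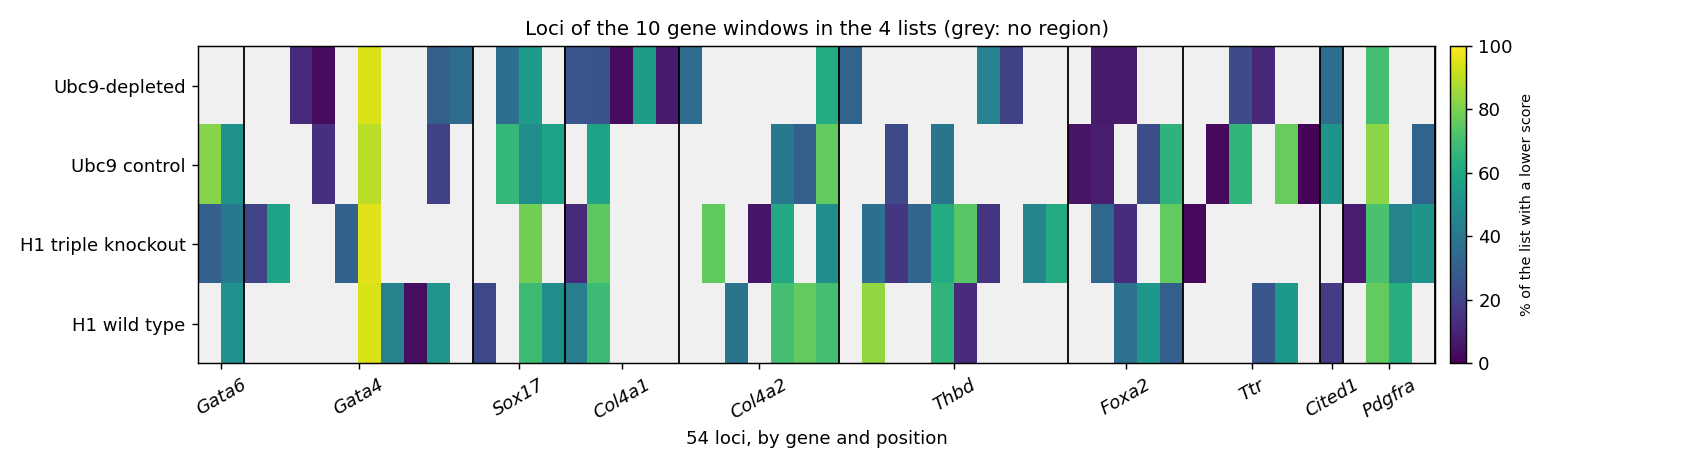
The 54 loci of the windows (columns, by gene and position, each shown once) in the 4 lists (rows), coloured by the percentage of the list with a lower score and grey where the list has no region. Columns filled in all 4 rows number 5, and 25 columns (46.3%) are filled in a single row, against 42.2% of loci near all genes.

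Within the pairs, 12 of 23 depleted regions (52.2%, exact Clopper-Pearson 95% interval 30.6 to 73.2, counting error only) and 14 of 25 control regions (56.0%, 34.9 to 75.6) were unshared, against 38.6% and 41.4% of regions within 50 kb of any protein-coding gene. In the H1 pair, 15 of 30 triple-knockout regions (50.0%, 31.3 to 68.7) and 12 of 27 wild-type regions (44.4%, 25.5 to 64.7) were unshared, against 30.4% and 27.1%. Each share lay above its background, and 3 of the 4 intervals include it, the exception being the triple knockout. The intervals here and below are no test against the background, since the genes were picked with differences known. They also treat regions as independent, although regions cluster by window, with 8 of the 30 triple-knockout regions around Thbd. With 100 kb on each side the triple-knockout share was 32.8% of 61 regions, and no background was computed for that flank. Regions away from all gene ends were unshared more often in general. Among these, the shares were 61.1% of 18, 58.8% of 17, 47.8% of 23 and 45.5% of 22 around the 10 genes, against 50.2%, 53.3%, 35.8% and 31.3% around all genes, and all 4 intervals include the background. Unshared regions had lower scores than shared ones, with medians of 84.8 against 103, 102 against 145, 100 against 172 and 114 against 176 in the depleted, control, triple-knockout and wild-type lists. The same order of medians was found around all genes (102 against 168, 94.3 against 177, 93.0 against 179 and 89.0 against 162).

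The windows of other embryo genes differed in level. Around 12 pluripotency genes, 79 depleted and 109 control regions were counted, of which 15.2% (8.1 to 25.0) and 36.7% (27.7 to 46.5) were unshared, and in the H1 pair 18.6% and 15.4% were. Around 12 trophectoderm genes, which mark the other extra-embryonic lineage, 12.5% of 32 depleted (3.51 to 29.0) and 46.2% of 52 control regions were unshared, and 23.5% and 34.5% in the H1 pair. Around 12 markers of feeder fibroblasts, cells on which stem cells are often grown, 53.1% of 32 depleted (34.7 to 70.9) and 59.5% of 37 control regions (42.1 to 75.2) were unshared, as large a share as around the 10 genes, and 30.4% and 22.0% were in the H1 pair. Without the Col4a1 and Col4a2 windows the depleted share of the 10 genes was 43.8% of 16 regions. The control, triple-knockout and wild-type shares were then 57.1%, 54.2% and 47.6%. With a score of at least 100 and all 10 windows, the depleted share was 40% of 10 regions. No background was computed at that score, so this value cannot be set against the background above. The differences between gene sets were not tested, and the 10 genes were picked with differences known. Around the 46 further genes described next, which are linked to the lineage but not all particular to it, the shares were 30.6%, 37.1%, 34.1% and 27.8%. The high shares of the 10 genes were thus not seen in that wider set. Of the regions of the 10 windows, 21.7%, 32.0%, 23.3% and 18.5% were at a gene end, against 30.2%, 28.7%, 26.1% and 27.6% around all genes, and the part of this in the shares was not tested.

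**Figure D4:**
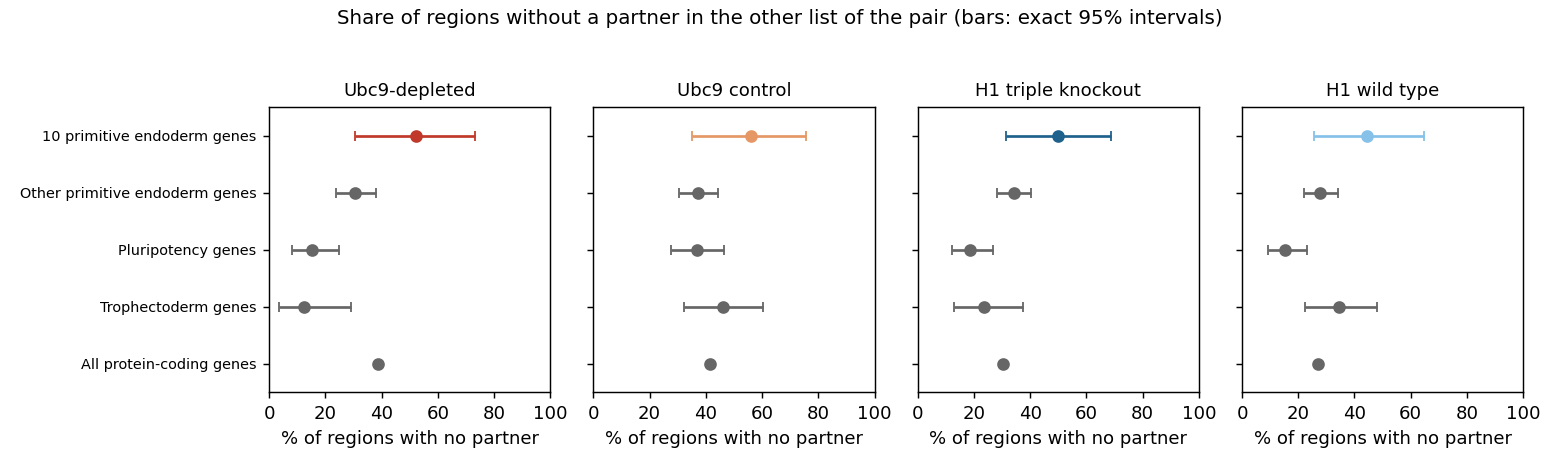
Percentage of regions with no partner in the other list of the pair (x axis), by gene set (rows) and list (panels), with exact 95% intervals as bars. The 10 genes, which were picked with differences known, stand at 52.2%, 56.0%, 50.0% and 44.4%. Each lies above the value for all protein-coding genes, and only the triple-knockout interval excludes that value. Feeder fibroblast markers are not plotted, and their shares were 53.1%, 59.5%, 30.4% and 22.0% in the depleted, control, triple-knockout and wild-type lists.

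Another 46 genes linked to the lineage, not all of them particular to it, were listed by role. In what follows, only means that the other list of the same pair held no gene-end region, whatever the other pair held. Of these, 27 had a gene-end region in depleted cells and 27 in control cells, 24 in triple-knockout and 26 in wild-type cells. Of all 21887 protein-coding genes, 11896, 11618, 11252 and 11325 had one in the same order, a share not far from that of the 46. Further transcription factors, such as Sox7 and Hnf4a, showed no gene-end difference in either pair (0 of 10). Of 12 receptor and signalling genes, Pth1r, the receptor that marks parietal endoderm, had a region in depleted cells only (160), and Fst, which encodes the activin antagonist follistatin, had one in triple-knockout cells only (238). Of 10 basement membrane genes, Lamb1, a laminin chain, had a region in depleted cells only (79.7). Of 14 uptake and secretion genes, Dkk1 (98.5) and Cer1 (87.7), both secreted signalling antagonists, had a region in control cells only. Apoe, a lipid carrier, had a region in both unperturbed lists only (97.6 in control and 90.2 in wild-type cells). Apob, another lipid carrier, had a region in depleted cells (86.4) that overlaps a control region not reaching the gene end, and a region in wild-type cells only of the H1 pair (72.9). Trf, which encodes the iron carrier transferrin, had one in wild-type cells only (109). In all, 3 of the 46 had a region in depleted cells only, 3 in control cells only, 1 in triple-knockout cells only and 3 in wild-type cells only. The shares over all genes were 5.29%, 4.02%, 4.45% and 4.78%, so these counts were near the background. The markers of feeder fibroblasts had a gene-end region at 3 of 12 genes in the depleted, control and triple-knockout lists and at 2 of 12 in the wild-type list. Among them Col5a1, a fibrillar collagen gene, had a region in depleted and not in control cells (266). Col5a1 also had one in triple-knockout and not in wild-type cells (81.0). Loxl1, a matrix enzyme, had one in depleted cells only (63.4), while Fbn1 (59.0) and S100a4 (65.1) had one in control cells only. The part of fibroblasts in the result at Col4a1 and Col4a2 was not tested.

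At the edge of the windows, a triple-knockout region 49.0 kb from Gata4 was counted, and a depleted region 50.1 kb from Sox17 (score 121) was not.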

How the data were processed

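ATAC-seq was measured in 8 samples in 4 groups. Per the submitters' processing notes, CASAVA 1.8.2, Bowtie2, Picard and MACS 1.4.2-1 were used with build mm10. Their settings, any shift of reads for the transposase, and how replicates were combined are not given in the sources used here. Each deposited list gives positions and a score per region. The scale of that score was read from its minimum of 50.

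Overlaps, loci and counts were computed with Python 3.11.15 and exact intervals with scipy 1.17.1. The overlap step was tested on simulated data against a direct comparison. Gene positions and start windows are RefSeq's (GRCm38.p6). The start table matched 5 of the 10 genes (Foxa2, Cited1, Pdgfra, Col4a1 and Col4a2), so both gene ends were used for all genes. The members, gene lists and comparisons were chosen with earlier results of these data known. Named besides the 10 genes are the listed lineage genes with a gene-end region in exactly 1 list of a pair, genes whose ends a region of the windows overlaps, and the targeted linker histone genes. Sox7, Hnf4a, Fdft1, Rab20, B4galt6 and the fibroblast genes were named after their values were seen. Alternatives covered flank, gene-end width, overlap, score and equal numbers of regions.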

Additional observations from a re-analysis of the deposited data

How the results depend on the processing

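Each list was made from both replicates, so no library could be left out. No paired analysis was possible because there is 1 list per group. The shares of unshared regions stayed within their main intervals under all 28 alternatives, which were 10 or 100 kb flanks, overlap of 50% of the shorter region, a score of at least 100, equal numbers of top-scoring regions (35135 per list in the Ubc9 pair and 41616 in the H1 pair) and, added after the data were seen, the windows without Col4a1 and Col4a2 and the windows without the genes' own ends. The triple-knockout share went from 50.0% to 32.8% with 100 kb flanks. These intervals are wide, at 23 to 30 regions per list. The count of genes with a gene-end region in depleted cells only was 2 under all 5 alternatives (Col4a1 and Col4a2 each time). The 3 genes with a control-only region became 2 with 500 bp gene ends, a score of at least 100 and equal numbers, Ttr being lost each time. They became 0 with transcription starts only, since Gata6, Thbd and Ttr are not in the start table. The 2 genes with a triple-knockout-only region became 1 with 2500 bp gene ends, 0 with 500 bp, and 1 each with starts only, a score of at least 100 and equal numbers. The wild-type-only gene, Cited1, was lost (0) with a score of at least 100 and with equal numbers. The 4 loci missing from the depleted list alone became 2 with 10 kb flanks and 12 with 100 kb flanks, where fewer and more loci are counted. They numbered 4 when no depleted region within 500 bp was allowed and 3 with a score of at least 100 in each of the 3 other lists. These last settings were added after the data were seen.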
